A study of Mus musculus with 115 samples.

Results

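Prostate libraries with many leukocyte transcripts were set against libraries with few, among prostates of TRAMP mice that carried little Chga, the chromogranin A gene that marks neuroendocrine cells. Total RNA from snap-frozen bulk prostate tissue, depleted of ribosomal RNA, was sequenced in 115 libraries of male mice labelled (TRAMP x WSB/EiJ) F2 and transgene positive. The paper took RNA from the ventral prostate where the organ weighed under 1 g, and it used organ weight as tumor burden without pathology. Which libraries are of ventral prostate or of tumor is not labelled. Every group carried the transgene and the mixed C57BL/6 J and WSB/EiJ background, no mouse was labelled with a treatment, an age or a tumor stage, and no mouse without the transgene was sequenced. The TRAMP transgene expresses SV40 T antigen from the androgen-responsive probasin promoter, which drives it in prostate epithelium. Of the 115 libraries, 73 had Chga below 1 TPM, the deposited unit of transcript abundance within a library, and these were ranked by Ptprc. The 24 with the highest Ptprc form the rich side, the 24 with the lowest the poor side, and the 25 between them are called the middle libraries. Another 42 libraries had Chga of 1 TPM or more and belong to neither side. Each library is labelled with its own mouse number, and the deposited values keep no read depth, so the counting error of each value is unknown.

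Ptprc encodes CD45, a phosphatase at the surface of nearly all leukocytes, and its transcript is a usual measure of how much of a bulk tissue is leukocyte RNA. Csf1r encodes the receptor through which macrophages and monocytes receive their survival signal, and Cd3e encodes a subunit of the T cell receptor complex. Macrophages, T cells and plasma cells all occur in mouse prostate, where inflammation also changes the epithelium: antigen presentation by class I and class II molecules goes up under interferon, and secretory cells take up genes such as Clu and Pigr.

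The sides were chosen by the measured values of Chga and Ptprc, so every difference between them is a description without a test. Chga reached 0.81 TPM in the highest library inside its limit and 1.15 TPM in the lowest library outside it. Ptprc ranged from 5.27 to 45.1 TPM (median 8.26) on the rich side and from 0.81 to 2.75 TPM (median 1.8) on the poor side, and from 2.78 to 4.81 TPM (median 3.57) in the middle libraries. The lowest rich library had 5.27 TPM against 4.81 TPM in the next one down, and the highest poor library had 2.75 TPM against 2.78 TPM in the next one up. The order of Ptprc is thus nearly continuous, with a single gap at the top: W4548 had 45.1 TPM and the library after it, W4414, had 12.03 TPM.

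Csf1r, which the ranking did not use, ranged from 5.65 to 54.2 TPM (median 9.04) on the rich side and from 1.66 to 6.08 TPM (median 3.68) on the poor side. It was above the highest poor library in 21 of the 24 rich ones, so the sides overlapped in few libraries. Cd3e ranged from 0 to 1.64 TPM (median 0.265) on the rich side and from 0.01 to 0.23 TPM (median 0.075) on the poor side. The T cell marker was thus under 2 TPM in every library of both sides, and its mean of less than 1 TPM kept it out of the genes compared. Relations of both markers with Ptprc were measured in libraries that neither side uses, as Pearson's r and Spearman's rho of log2(TPM + 1) with two-sided permutation tests, within 3 sets: the middle libraries, the 32 libraries with Chga from 21.2 to 479 TPM, and the 10 with Chga from 1.15 to 4.84 TPM. The last of these sets lie apart in Chga, so these relations were read within each of them and not over all 42 together. P-values were adjusted over the 6 relations by the Benjamini-Hochberg method. In the middle libraries (n = 25) Csf1r had r of 0.72 (permutation p 7e-05, adjusted 0.00014) and rho of 0.67 (permutation p 0.0003, adjusted 0.0006), and r was 0.76 after the 2 libraries with Ptprc farthest from its median were left out. For Cd3e, r was 0.20 (permutation p 0.335, adjusted 0.402) and rho 0.13 (permutation p 0.519, adjusted 0.563), with r of 0.26 after the same step. In the 22 middle libraries with mouse numbers in the 4000s, r was 0.68 for Csf1r and 0.37 for Cd3e. In these libraries, then, the macrophage marker tracked Ptprc and no relation was found for the T cell marker. In the 32 libraries with high Chga both did: r was 0.93 for Csf1r and 0.81 for Cd3e, rho 0.92 and 0.80, each with permutation p of 1e-05, the smallest that the permutations can give (adjusted 3e-05). Without the 2 farthest libraries r was 0.94 and 0.72, and in the 15 with mouse numbers in the 4000s it was 0.92 and 0.86. In the 10 libraries with Chga from 1.15 to 4.84 TPM, Csf1r had r of 0.92 (permutation p 0.00152, adjusted 0.00228) and rho of 0.79 (permutation p 0.00909, adjusted 0.0136), while Cd3e had r of 0.20 (permutation p 0.575) and rho of 0.21 (permutation p 0.563), neither below 0.05 after adjustment. Without the 2 farthest, r was 0.95 and 0.33. The differences between the sets were not tested. Leukocyte-rich therefore means rich in Ptprc and Csf1r here, with few T cell transcripts of Cd3e on either side. Low as it was, Cd3e lay above the highest poor library in 14 of the 24 rich ones. Of the other T cell genes described below, Trbc2 did so in 21, while Tcf7 was lower on the rich side. Immunoglobulin genes, also described below, were higher on the rich side.

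**Figure D1:**
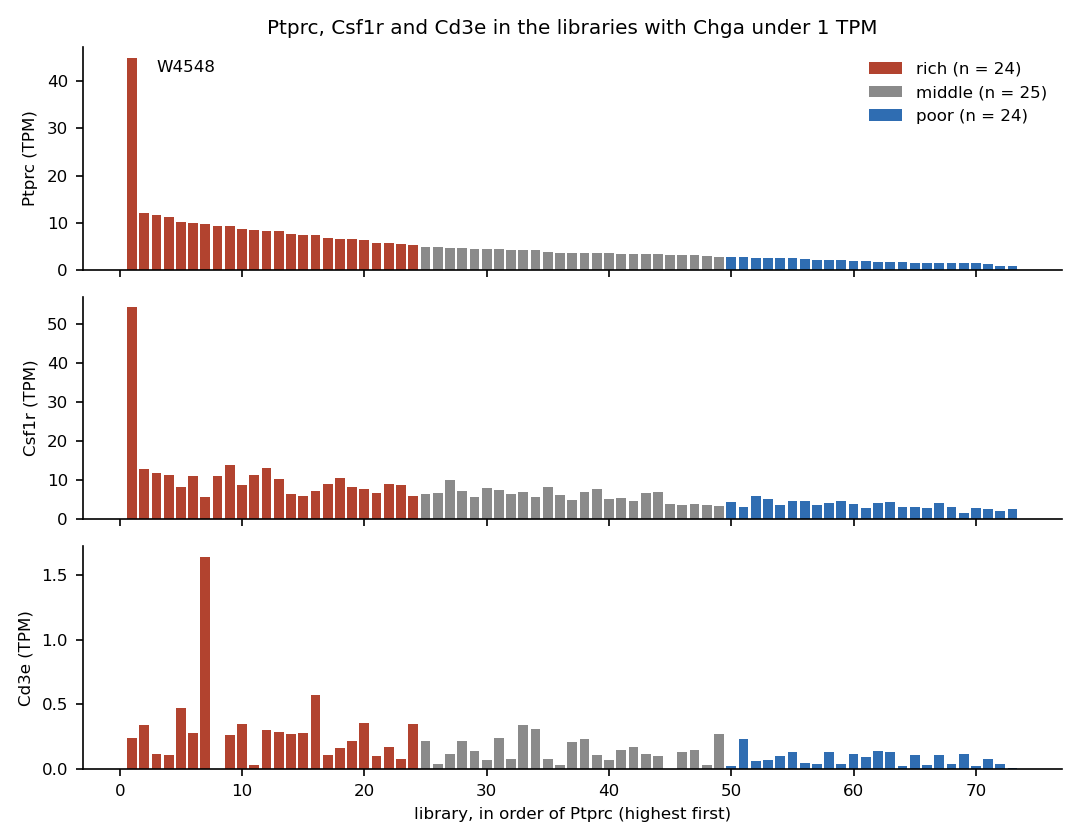
TPM of Ptprc, Csf1r and Cd3e (y axes) in each of the 73 libraries with Chga under 1 TPM, in order of Ptprc from the highest (x axis); red bars are the 24 rich, grey the 25 middle and blue the 24 poor libraries. Csf1r is lower toward the end of the order, W4548 leads both, and Cd3e does not pass 1.64 TPM.

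Some libraries stood apart before any comparison. W4548 had 54.2 TPM of Csf1r, 645 TPM of the collagen gene Col1a1 and a summed TPM of 1951 over the macrophage list, against a median of 305 on its side. W1118 and W1154, both rich, held few transcripts of smooth muscle and of Tgm4: the smooth muscle actin gene Acta2 was at 49.9 and 49 TPM, and the prostate transglutaminase gene Tgm4 at 3.77 and 0.64 TPM. W1118 also had the highest summed TPM of the proliferation list among the 73, 993. Mouse numbers, the only label that differs between libraries, were unevenly spread: 63 of the 73 were in the 4000s, and all 4 libraries in the 5000s were on the poor side, with 0 on the rich side and 0 among the middle libraries. What these number series stand for is not labelled, so the poor side and the 5000s cannot be told apart in those 4 libraries. The labels W7822 and W78022 are nearly alike, both are middle libraries, and whether they are different mice is not labelled. W78022 is the middle library with the lowest Ptprc, and counts without it are given below. Without W4548 all 27 lists of genes described here kept the sign of their median difference, and the largest change of such a median was -0.15, in the lymphatic list. Without the libraries in the 5000s all 27 kept it as well, and the largest change was -0.33, in the class II list.

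The sides also differed in composition. TPM is a share of each library, and the 20 genes with the largest summed TPM held a mean of 62.1% of it on the rich side and 71.5% on the poor side. Foremost among them were Rn7s1 and Rn7s2, copies of the 7SL RNA of the signal recognition particle with identical listed values, at a median of 187052 TPM on the rich side and 261775 TPM on the poor side. Rn7sk, the RNA that holds back the elongation factor P-TEFb, went the other way, at a median of 155590 TPM on the rich side and 108701 TPM on the poor side. Most other genes made up a larger share of the rich libraries: 11827 of the 12999 genes compared (91.0%) were higher on the rich side, and the median difference of all genes was 0.49 on the log2 scale. That median was 0.48 without W4548, 0.18 when TPM was rescaled without the 20 genes, and -0.03 with median-of-ratios factors, which set each library by its ratios to the typical library. Differences are therefore given from the deposited TPM and also less this median of 0.49, called the general shift.

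Autosomal genes were compared when their mean over the 73 libraries reached 1 TPM, which left 12999, and of these 1572 (12.1%) were at least 2-fold higher on the rich side and 102 (0.785%) at least 2-fold lower. The 73 include the rich side, so a gene of low level passed the filter more readily when it was high there. Beyond the general shift 398 (3.06%) were at least 2-fold higher and 290 (2.23%) lower, so the share of these genes that was higher went from 93.9% to 57.8%. It was 59.3% with ratio factors and 81.7% without the 20 genes. In 53 genes (0.408%) the ranges of the sides did not overlap. The number of 2-fold genes was 772 with ratio factors, 2995 with a pseudocount of 0.1, 610 when 36 libraries were taken from either end of the ranking and 491 when they were ranked by Cd3e. Without W4548 it was 1565, and without W1118 and W1154 it was 1777, against 1674 with all libraries.

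Genes were then tested in the libraries that neither side uses, by regression of log2(TPM + 1) on log2(Ptprc TPM + 1) with limma and Benjamini-Hochberg adjustment over all 12999 genes. In the 25 middle libraries, which span only 0.62 log2 units of Ptprc, 190 genes (1.46%) rose with Ptprc at an adjusted p under 0.05 and 0 (0%) fell; at an unadjusted p under 0.05 there were 4685, of which 13 fell. The median slope of all genes was 0.58 there, another general shift, and with ratio factors it was -0.03. On that scale 49 genes (0.377%) rose, 42 of them among the 190, and 5 (0.0385%) fell. The count in the middle libraries rested on few of them: without W78022, 32 genes rose, all among the 190, and within mouse numbers in the 4000s it was 14. It was 33 with the proliferation list as a covariate, 13 with the smooth muscle list and 115 with no filter on low values, against 716 when the 2 libraries with Ptprc farthest from its median were left out. Rescaled without the 20 genes, 12 rose and 1 fell. On Csf1r in place of Ptprc 1414 rose and 2 fell, and on Cd3e 0 did, with 261 at an unadjusted p under 0.05. Tested against the median slope in place of 0, 1 gene lay above it and 35 below.

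In the 42 libraries with Chga of 1 TPM or more, where Ptprc spans 3.89 log2 units, 5165 genes (39.7%) rose with Ptprc and 386 (2.97%) fell. With ratio factors 2998 (23.1%) rose and 1452 (11.2%) fell, of which 2997 and 379 were among the former. Within the 32 libraries of high Chga alone 2044 (15.7%) rose and 116 (0.892%) fell, within mouse numbers in the 4000s 842 and 20 did, and with log2(Chga + 1) as a covariate 140 fell, of which 111 were among the 386. Rescaled without the 20 genes they were 2872 and 297, and tested against the median slope of 0.12, 1845 genes lay above it and 1572 below. Of the 190 genes of the middle libraries, 131 also rose in this set, beside 39.7% of all genes, and 48 genes rose in both sets with ratio factors. Of the 1572 genes higher on the rich side, 97 rose in the middle libraries and 781 in those with Chga, beside 1.46% and 39.7% of all genes. Of the 102 lower genes, 2 fell and 24 rose with Ptprc in the libraries with Chga, both shares lying below those of all genes there. Counts of list members given below are to be read beside the shares of all genes given here for each set. Those between the sides stand beside 12.1% of all genes, or 3.06% beyond the general shift.

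The macrophage list held 20 genes, all compared, and 18 of them were at least 2-fold higher on the rich side, beside 12.1% of all genes. Its median difference was 1.30, or 0.81 beyond the general shift, and 8 genes were 2-fold higher beyond it. The summed TPM had a median of 305 on the rich side and 100.1 on the poor side, and 23 of the 24 rich libraries were above the highest poor one. Whether such a difference reflects more cells of a type or more of their RNA per cell cannot be told apart in bulk tissue.

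Lyz2, which encodes the lysozyme of phagocytes, was the most abundant of the list and ranged from 42.5 to 802 TPM (median 99.7) on the rich side and from 6.69 to 79.5 TPM (median 32.4) on the poor side. The genes of the 3 chains of complement C1q, which macrophages secrete, came next. C1qc ranged from 14.9 to 141 TPM (median 27) on the rich side and from 2.64 to 14.6 TPM (median 8.69) on the poor side, so that the lowest rich library lay just above the highest poor one. C1qa and C1qb overlapped, with 19 and 23 rich libraries above the highest poor one. The difference of C1qc was 1.77 (SD 0.66 and 0.59; 1.28 beyond the shift, 1.67 without W4548). Fcer1g, which encodes the signalling chain shared by Fc receptors, ranged from 5.6 to 64.8 TPM (median 9.64) on the rich side and from 1.06 to 4.34 TPM (median 2.72) on the poor side with no overlap and a difference of 1.68 (SD 0.64 and 0.39). Only Mertk went against its list: this receptor for the clearance of dead cells had a median of 7.12 TPM on the rich side and 11.8 TPM on the poor side, a difference of -0.61.

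Where the rule did not reach, 13 of the 20 macrophage genes rose with Ptprc in the middle libraries (6 with ratio factors), beside 1.46% of all genes (0.377%). In the libraries with Chga all 20 rose on either scale, and also within the 32 of high Chga, beside 39.7% of all genes (23.1% with ratio factors). Fcer1g rose with a slope of 1.31 ± 0.26 (SE), adjusted p 0.0157, in the middle libraries, and of 0.99 ± 0.06 (SE), adjusted p 6.09e-18, in those with Chga. The call in the middle libraries held with ratio factors (adjusted p 0.00591) and without W78022 (0.0368), not within mouse numbers in the 4000s (0.0898). For Csf1r the slope was 1.36 ± 0.28 (SE), adjusted p 0.0163, in the middle libraries, a call that ended with ratio factors (adjusted p 0.156) and without W78022 (0.063). C1qc rose there too, at 1.64 ± 0.40 (SE), adjusted p 0.0366, and its call ended in the same alternatives (adjusted p 0.0914 and 0.0621). Mertk, lower on the rich side, rose in the libraries with Chga (0.46 ± 0.11 (SE), adjusted p 0.000909).

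The list of genes common to leukocytes held 20, of which 17 were compared and 11 were at least 2-fold higher. Its median difference was 1.17 (0.68 beyond the shift). The summed TPM, to which abundant members add most, had a median of 227 on the rich side, 322 in the middle libraries and 139 on the poor side, and 7 of the 24 rich libraries were above the highest poor one, so the sum did not follow the ranking. Ranges did not overlap for Cd53, a tetraspanin, Coro1a, an actin-binding protein, and Itgb2, the beta chain of the leukocyte integrins. Cd53 ranged from 3.44 to 38.8 TPM (median 5.78) on the rich side and from 0.4 to 3.34 TPM (median 1.42) on the poor side, a difference of 1.61 (SD 0.64 and 0.38). Coro1a had a median of 13.4 TPM on the rich side and 3.67 TPM on the poor side and Itgb2 had a median of 4.01 TPM on the rich side and 1.24 TPM on the poor side. The more abundant members moved less: Cd52, which encodes a small surface glycoprotein, differed by 0.62 and Lcp1, an actin bundler, by 0.39, and with ratio factors these became -0.01 and -0.23, so their direction depends on the scale. Lsp1, a binding protein of actin filaments, differed by 1.17 and Ptpn6, a phosphatase that dampens receptor signals, by 0.82. Among the middle libraries 8 of the 17 rose (3 with ratio factors) and in the libraries with Chga all 17 did on either scale, 16 of them within the 32 of high Chga. The slope of Cd53 was 1.45 ± 0.28 (SE), adjusted p 0.0137, in the middle libraries and 0.92 ± 0.06 (SE), adjusted p 2.97e-16, in those with Chga. Within mouse numbers in the 4000s its call in the middle libraries ended (adjusted p 0.0772), and without W78022 it held (0.0287). Leaving out W78022 ended the calls there of Coro1a, Itgb2, Lsp1 and the list member Vav1 (adjusted p 0.068, 0.071, 0.114 and 0.125).

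The 2 promoters shown were picked among those promoters of the leukocyte lists that hold the word searched for below. That they hold it was thus fixed by the choice and is no evidence beside the share of all promoters. Both genes, C1qc and Cd53, also rose with Ptprc in either set. RefSeq promoters (GRCm38.p6, from 250 bases before to 50 after the start) matched 82 of the 118 genes in the leukocyte lists, too few to give a share for the lists. They were searched on both strands for GAGGAAGT, a form of the site bound by PU.1, the ETS factor that myeloid cells depend on; 3.2% of all 32851 promoters hold it. C1qc lies at chr4:136892865-136893164, minus strand, and Cd53 at chr3:106790100-106790399, minus strand. Capitals mark the match, which lies on the opposite strand in both and reads as its reverse complement. A match is a description and not a site or a cause.
C1qc: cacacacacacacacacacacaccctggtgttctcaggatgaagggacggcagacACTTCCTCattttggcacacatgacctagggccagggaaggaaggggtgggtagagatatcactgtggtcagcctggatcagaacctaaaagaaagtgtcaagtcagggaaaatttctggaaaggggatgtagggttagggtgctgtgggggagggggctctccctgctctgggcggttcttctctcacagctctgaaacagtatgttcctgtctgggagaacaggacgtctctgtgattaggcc
Cd53: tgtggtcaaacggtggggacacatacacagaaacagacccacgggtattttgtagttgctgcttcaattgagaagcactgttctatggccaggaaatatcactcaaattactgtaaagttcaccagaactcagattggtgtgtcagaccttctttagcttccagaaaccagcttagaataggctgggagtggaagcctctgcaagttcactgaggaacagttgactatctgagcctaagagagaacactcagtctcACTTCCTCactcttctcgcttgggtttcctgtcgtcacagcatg

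Genes of single leukocyte types differed less evenly. The T cell list had 4 of its 22 genes compared, and the median difference was 0.85, 0.36 beyond the shift. Trbc2, a constant segment of the T cell receptor, had a median of 3.44 TPM on the rich side and 0.665 TPM on the poor side, and Cd3g, another subunit of that complex, had a median of 2.9 TPM on the rich side and 0.78 TPM on the poor side. Lck, the kinase next to the receptor, differed by 0.60. Tcf7, a transcription factor of T cells, differed by -0.31, against its list. Its slope in the libraries with Chga was 0.31 ± 0.11 (SE), adjusted p 0.0213; with ratio factors the adjusted p was 0.122, and within the 32 of high Chga the slope was -0.05. No gene of the list rose in the middle libraries (0 of 4), and 4 of 4 did in the libraries with Chga (3 with ratio factors, 2 within the 32 of high Chga).

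Of the 14 genes of the cytotoxic and natural killer list, 5 were compared and 3 were at least 2-fold higher, with a median difference of 1.05 (0.56 beyond the shift). Ccl5, a chemokine of T and natural killer cells, had a median of 3.96 TPM on the rich side and 0.655 TPM on the poor side, and Xcl1, another, had a median of 2.96 TPM on the rich side and 0.485 TPM on the poor side. The granzyme genes were split, with 0.93 for Gzmb and 0.20 for Gzma, the latter -0.07 with ratio factors. None of the 5 rose in the middle libraries and all 5 rose in the libraries with Chga on either scale, 4 of them within the 32 of high Chga.

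The list of B and plasma cells had the largest median difference of all 27, 2.51 (2.02 beyond the shift), with all 4 compared genes at least 2-fold higher. The list held 18 genes, so this median speaks only for the 4 that passed the filter, all of them genes of immunoglobulin chains or their joining. Igkc, the constant segment of the kappa light chain, ranged from 0.23 to 251 TPM (median 88.7) on the rich side and from 0 to 57.1 TPM (median 5.34) on the poor side. That spread covered most of the scale on either side, and 14 of 24 rich libraries were above the highest poor one. Ighm, the heavy chain of IgM, had a median of 54.4 TPM on the rich side and 4.59 TPM on the poor side, and Jchain, which joins IgM and IgA units, had a median of 16.7 TPM on the rich side and 1.4 TPM on the poor side. Igha, the heavy chain of IgA, had a median of 4.97 TPM on the rich side and 0.1 TPM on the poor side. Its mean of 3.33 TPM over the 73 libraries passed the filter mainly through the rich side, with a median of 1.02 TPM in the middle libraries. In W1154 Igkc was at 0.23 TPM although it was rich in Ptprc. None of these 4 genes rose with Ptprc in the middle libraries, where the slope of Igkc was 0.85 ± 1.94 (SE), adjusted p 0.72, while all 4 rose in the libraries with Chga. Immunoglobulin was thus high on most of the rich side without a relation being found inside the middle of the range.

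The dendritic list held 10 genes and the granulocyte list 14, of which 4 and 7 were compared. The dendritic list had a median difference of 0.77 and 1 of 4 genes 2-fold higher, and the granulocyte list had 0.82 and 1 of 7, beside 12.1% of all genes. Beyond the general shift neither list had such a gene. Clec10a, a lectin of dendritic cells and macrophages, differed by 1.12, Itgax, the integrin chain CD11c, by 0.95, and Zbtb46, a factor of conventional dendritic cells, by 0.59. The means of Itgax and Zbtb46, 1.11 and 1.19 TPM, passed the filter mainly through the rich side, with medians of 0.91 and 0.98 TPM in the middle libraries. Batf3, which cross-presenting dendritic cells need, differed by 0.35, or -0.09 with ratio factors. The mast cell protease genes Cma1, Mcpt4 and Cpa3 differed by 0.37, 0.18 and 0.19, and all were negative with ratio factors. Retnlg, a resistin-like gene of neutrophils, had a median of 0 TPM on the poor side and reached 88.5 TPM in W4548; its mean of 1.93 TPM over the 73 libraries passed the filter mainly through that rich library, without which its difference went from 1.02 to 0.79. No gene of either list rose in the middle libraries. In the libraries with Chga, 2 of the 4 dendritic and 6 of the 7 granulocyte genes rose, beside 39.7% of all genes. With ratio factors 2 and 4 rose and 1 granulocyte gene fell, where 23.1% of all genes rose and 11.2% fell. Most granulocyte calls ended within the 32 of high Chga, where 1 of the 7 rose, while 2 dendritic genes did.

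**Figure D2:**
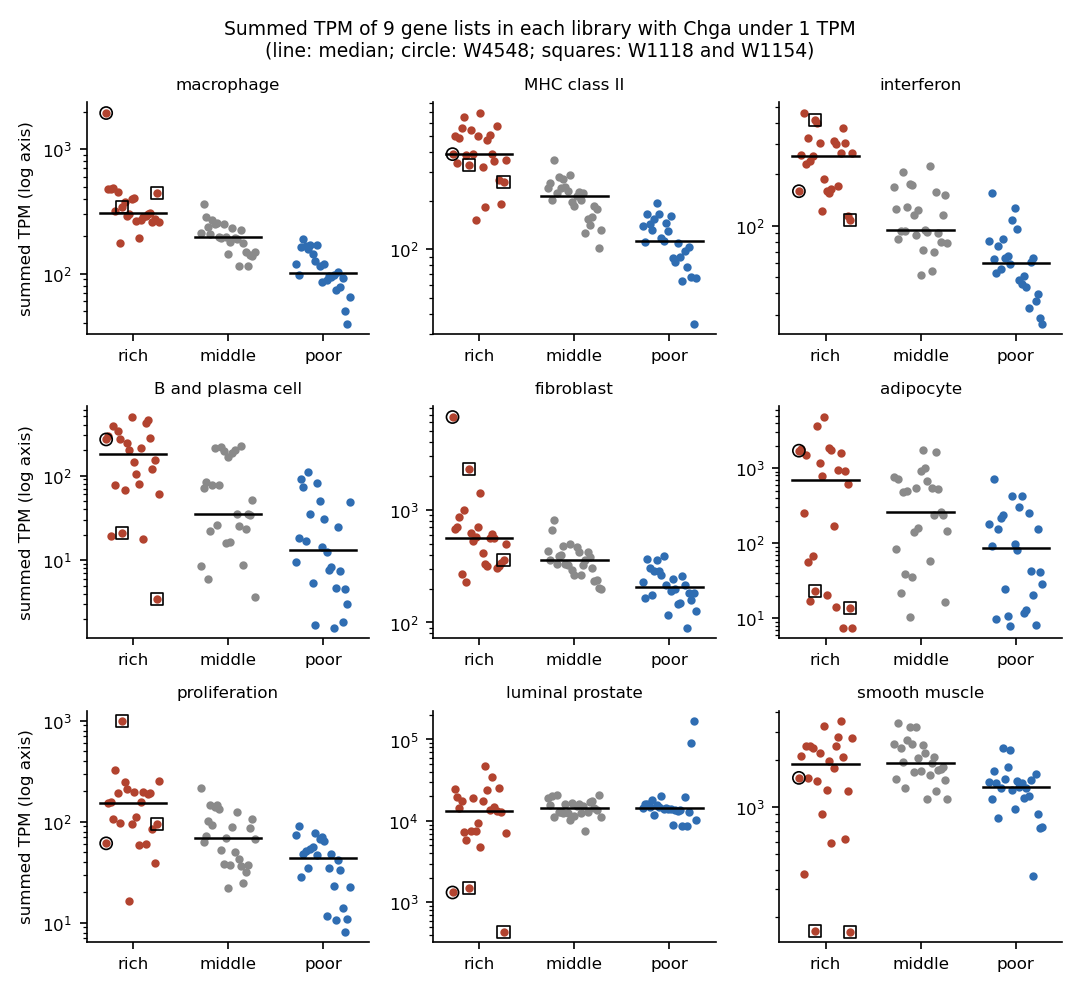
Summed TPM (y axes, log scale) of 9 gene lists in each of the 73 libraries, by set (x axes: 24 rich, 25 middle, 24 poor); points are libraries, black lines medians, the circle W4548 and the squares W1118 and W1154. The macrophage, class II and interferon sums separate most rich libraries from the poor ones, while the luminal and smooth muscle sums overlap between the sets.

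Antigen presentation differed more than the general shift on every compared gene. The class II list, whose products show peptides to helper T cells, had 7 genes compared, 6 of them at least 2-fold higher, and a median difference of 1.76 (1.27 beyond the shift). H2-Aa, an alpha chain, ranged from 48.1 to 155 TPM (median 96.2) on the rich side and from 10.4 to 41.8 TPM (median 27.7) on the poor side, with no overlap and a difference of 1.76 (SD 0.46 and 0.48; 1.27 beyond the shift). Its partner H2-Ab1 had a median of 69.3 TPM on the rich side and 19.9 TPM on the poor side, and Cd74, the invariant chain that escorts class II molecules, had a median of 158 TPM on the rich side and 46.8 TPM on the poor side. Each of those 2 had 23 rich libraries above the highest poor one. W4548 was not high here: its summed TPM of 387 lay near the median of its side, 386.

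H2-Eb1, another beta chain, was split in a way that did not follow the sides. It was at or below 2.03 TPM in 4 rich, 7 middle and 6 poor libraries and at 6.69 TPM or more in all others, a gap picked out after the values were seen. Its difference was 1.77, with 11 rich libraries above the highest poor one. With the proliferation list as a covariate the difference was -0.37.

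With Ptprc, 4 of the 7 class II genes rose in the middle libraries, on either scale, and all 7 rose in the libraries with Chga and within the 32 of high Chga. H2-Aa had a slope of 1.59 ± 0.32 (SE), adjusted p 0.0157, in the middle libraries, and of 1.60 ± 0.13 (SE), adjusted p 1.61e-13, in those with Chga. The call in the middle libraries held with ratio factors (adjusted p 0.0315) and without W78022 (0.0446), not within mouse numbers in the 4000s (0.0898).

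The class I list, whose products are carried by nearly all cells, had 12 genes compared, all at least 2-fold higher and 8 of them beyond the shift as well. Its median difference was 1.63 (1.14 beyond the shift). H2-K1, a heavy chain, ranged from 215 to 2063 TPM (median 921) on the rich side and from 42.4 to 483 TPM (median 199) on the poor side, a difference of 2.17 (SD 0.84 and 0.93), and 19 rich libraries were above the highest poor one. H2-D1 and H2-T23, further heavy chains, differed by 1.56 and 1.82. B2m, the light chain common to them, was the most abundant of the list at a median of 2320.0 TPM on the rich side and 1122 TPM on the poor side, with a difference of 1.01. None of the 12 passed in the middle libraries, while all 12 rose in the libraries with Chga on either scale. For H2-K1 the slopes were 0.86 ± 0.66 (SE), adjusted p 0.303, and 1.43 ± 0.19 (SE), adjusted p 1.74e-07.

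Of the interferon list 20 genes were compared and 18 were at least 2-fold higher, 13 of them beyond the shift. The median difference was 1.63 (1.14 beyond it), and the summed TPM had a median of 258 on the rich side and 60.3 on the poor side. Irf7, the factor that amplifies type I interferon, ranged from 12.9 to 71.3 TPM (median 32.9) on the rich side and from 1.76 to 21.4 TPM (median 4.08) on the poor side, a difference of 2.36 (SD 0.74 and 0.88). Irf1, another interferon response factor, had a median of 25.4 TPM on the rich side and 11.5 TPM on the poor side. Ifit3, an antiviral protein, had a median of 17.7 TPM on the rich side and 3.1 TPM on the poor side. Libraries overlapped for each of them, with 16 to 20 of 24 rich libraries above the highest poor one. Irf7 was no higher than 12.9 TPM in W4548, the lowest value of the rich side, although W4548 had the most Ptprc.

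None of these 20 genes rose with Ptprc in the middle libraries, and 19 of 20 rose in the libraries with Chga on either scale. Ifit3 showed the contrast between the sets: its slope was 0.49 ± 0.78 (SE), adjusted p 0.61, in the middle libraries, with -0.01 on ratio factors, and 1.05 ± 0.10 (SE), adjusted p 3.8e-11, in those with Chga. Whether the slopes differ between the sets was not tested.

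Promoters of class II and interferon genes are shown because most genes of both lists were 2-fold higher and their promoters have known elements. The searched words were CTGATTGG, the Y box of class II promoters, held by 4.1% of all promoters, and TTTCNNTTT, the core of the element bound by interferon response factors, held by 10.6%. RefSeq matched 7 of 10 class II and 16 of 21 interferon genes, too few for a share over either list. From each, the most abundant genes with a match are given. H2-Aa lies at chr17:34287774-34288073, minus strand; H2-Eb1 at chr17:34305617-34305916, plus strand; Ifit3 at chr19:34583279-34583578, plus strand; and Isg15, which encodes a ubiquitin-like modifier, at chr4:156200769-156201068, minus strand. Capitals mark the matches. In Isg15 they are 3 overlapping matches on the opposite strand, and in Ifit3 there are 2.
H2-Aa: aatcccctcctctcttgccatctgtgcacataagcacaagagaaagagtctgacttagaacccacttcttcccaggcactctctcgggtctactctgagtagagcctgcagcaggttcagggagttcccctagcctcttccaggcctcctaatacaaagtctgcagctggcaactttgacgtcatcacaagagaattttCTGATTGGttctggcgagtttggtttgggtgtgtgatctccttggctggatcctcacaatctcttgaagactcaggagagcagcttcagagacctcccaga
H2-Eb1: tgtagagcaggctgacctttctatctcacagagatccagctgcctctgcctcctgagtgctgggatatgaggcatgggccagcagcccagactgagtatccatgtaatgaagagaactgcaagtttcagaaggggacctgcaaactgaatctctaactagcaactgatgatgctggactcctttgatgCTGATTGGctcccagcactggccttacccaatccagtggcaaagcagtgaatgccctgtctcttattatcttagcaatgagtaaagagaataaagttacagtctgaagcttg
Ifit3: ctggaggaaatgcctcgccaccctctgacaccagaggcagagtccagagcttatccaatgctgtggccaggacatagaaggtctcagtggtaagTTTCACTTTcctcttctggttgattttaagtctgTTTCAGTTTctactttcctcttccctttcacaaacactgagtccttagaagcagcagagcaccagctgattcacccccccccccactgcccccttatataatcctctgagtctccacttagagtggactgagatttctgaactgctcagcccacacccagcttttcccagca
Isg15: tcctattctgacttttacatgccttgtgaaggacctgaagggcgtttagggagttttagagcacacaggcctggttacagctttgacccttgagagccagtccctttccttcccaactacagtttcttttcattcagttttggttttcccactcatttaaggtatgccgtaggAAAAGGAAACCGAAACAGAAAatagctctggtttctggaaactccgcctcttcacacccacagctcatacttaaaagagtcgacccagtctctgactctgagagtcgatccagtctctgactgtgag

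Ligands and receptors that bring leukocytes into tissue followed. Of 10 chemokine system genes compared, 8 were at least 2-fold higher, with a median difference of 1.21 (0.72 beyond the shift), and the summed TPM of every rich library was above that of every poor one. Ccl8, a ligand for monocytes made by macrophages, ranged from 1.33 to 352.9 TPM (median 14.7) on the rich side and from 0.49 to 10.1 TPM (median 2.81) on the poor side, the highest value coming from W4548. Cxcl16, a transmembrane chemokine, had a median of 13.1 TPM on the rich side and 4.37 TPM on the poor side, and Cxcl12, a stromal ligand, had a median of 13 TPM on the rich side and 4.57 TPM on the poor side. Ccl21a, made by lymphatic vessels, differed less, by 0.71. Of the 10, 2 rose in the middle libraries. In the libraries with Chga 9 of 10 rose, and all 10 within the 32 of high Chga.

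Of the checkpoint list, only 2 genes reached the mean of 1 TPM. Vsir, which encodes the inhibitory receptor VISTA of myeloid cells, had a median of 8.06 TPM on the rich side and 2.48 TPM on the poor side, and Ido1, a tryptophan-degrading enzyme, had a median of 6.08 TPM on the rich side and 0.885 TPM on the poor side. Their median difference was 1.48. Cd274, the gene of PD-L1, stayed below the filter with a median of 0.97 TPM on the rich side and 0.3 TPM on the poor side, and so did Btla, a lymphocyte inhibitory receptor, with a median of 0.705 TPM on the rich side and 0.1 TPM on the poor side. Neither compared gene rose in the middle libraries and Vsir alone did in those with Chga (0.83 ± 0.08 (SE), adjusted p 7.7e-11).

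The complement list had 11 genes compared, 7 of them at least 2-fold higher, and a median difference of 1.28 (0.79 beyond the shift). C3, the central component, ranged from 12 to 608 TPM (median 33.2) on the rich side and from 3.18 to 29 TPM (median 10.4) on the poor side, and C3ar1, the receptor of its fragment C3a, ranged from 0.94 to 10.9 TPM (median 1.5) on the rich side and from 0.24 to 0.8 TPM (median 0.435) on the poor side, with no overlap. The mean of C3ar1 over the 73 libraries, 1.10 TPM, passed the filter mainly through the rich side. Its median was 0.78 TPM in the middle libraries, and no poor library was above 0.8 TPM. Serping1, the C1 inhibitor, differed by 1.27. Cfd, an adipocyte protease of the alternative pathway, had a median of 289.7 TPM on the rich side and 17.7 TPM on the poor side. C1s1, a protease of the C1 complex, differed by -0.62, against the list. C3ar1 was the 1 gene that rose in the middle libraries (0.80 ± 0.17 (SE), adjusted p 0.0183), a call that ended without W78022 (adjusted p 0.0503) and within mouse numbers in the 4000s (0.107), and all 11 rose in those with Chga, C1s1 among them (1.15 ± 0.16 (SE), adjusted p 1.8e-07).

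Genes that inflamed epithelium takes up had a median difference of 1.66 (1.17 beyond the shift), with 9 of 10 at least 2-fold higher. Clu, the secreted chaperone clusterin, ranged from 12.9 to 1656 TPM (median 467) on the rich side and from 5.54 to 430.1 TPM (median 70.9) on the poor side. Pigr, which carries IgA and IgM across epithelium, had a median of 111 TPM on the rich side and 26.6 TPM on the poor side, and Ly6a, the surface protein Sca-1, had a median of 137 TPM on the rich side and 29.6 TPM on the poor side. Ptgs2, the inducible cyclooxygenase, did not follow the ranking. It had a median of 0.9 TPM on the rich side, 9.2 TPM in the middle libraries and 0.29 TPM on the poor side. The highest value was 217 TPM on the rich side and 309 TPM in the middle libraries. Just 1 of 10 rose in the middle libraries, and 0 with ratio factors; in the libraries with Chga 8 of 10 rose on either scale.

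**Figure D3:**
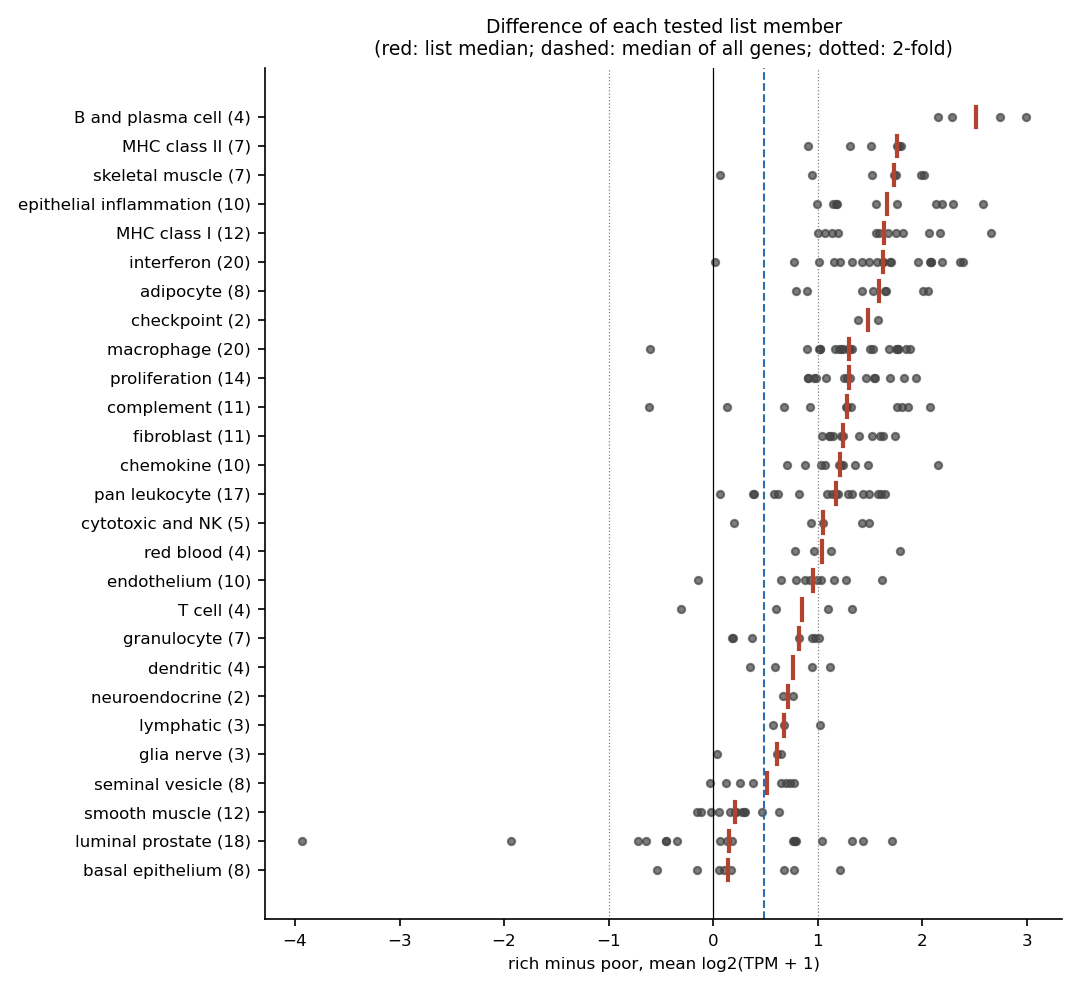
Rich minus poor difference of mean log2(TPM + 1) (x axis) for each compared gene of the 27 lists (y axis, number of genes in parentheses); red bars are list medians, the dashed line the median of all genes (0.49) and the dotted lines 2-fold either way. The medians of the B and plasma cell, class II, class I and interferon lists lie right of the dashed line, and those of the smooth muscle, luminal and basal lists to its left.

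Other tissue in the samples moved with the sides. All 11 fibroblast genes compared were at least 2-fold higher, 4 beyond the shift, and the median difference was 1.24 (0.75 beyond it). Dcn, a proteoglycan, was the most abundant, with a median of 167 TPM on the rich side and 79.9 TPM on the poor side. The collagen genes Col3a1 and Col1a2 differed by 1.74 and 1.62, or 1.53 and 1.46 without W4548, and Fn1, fibronectin, by 1.40. Their summed TPM had a median of 563 on the rich side and 205 on the poor side, and W4548 reached 6652. With Ptprc, 5 of 11 rose in the middle libraries (2 with ratio factors), and in those with Chga 10 of 11 did. The calls of Col3a1, Col1a2 and Fn1 in the middle libraries ended without W78022 (adjusted p 0.141, 0.123 and 0.110). The part of fibroblast content in the differences of the leukocyte genes was not tested.

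Vessels gave smaller differences. The endothelium list had a median of 0.96 (0.47 beyond the shift), with 4 of 10 at least 2-fold higher, beside 12.1% of all genes. Beyond the shift 1 of the 10 was, beside 3.06% of all genes. Egfl7, a secreted vessel protein, differed by 1.61, the junction genes Pecam1 and Cldn5 by 1.15 and 1.28, and Emcn, a sialomucin, by -0.14, against its list. None rose in the middle libraries, and all 10 rose in those with Chga (9 with ratio factors, 9 within the 32 of high Chga). The lymphatic list had a median of 0.68, with Lyve1, a hyaluronan receptor, at 1.03, Pdpn, a mucin-type glycoprotein, at 0.68 and Reln, a secreted matrix protein, at 0.57. Prox1, the factor that specifies lymphatic vessels, did not pass the filter and had a median of 0.185 TPM on the rich side and 0.08 TPM on the poor side, with 42.4 TPM in W1118. None of the 3 lymphatic genes compared rose in the middle libraries; 2 rose and 1, Reln, fell in those with Chga, a fall that ended within the 32 of high Chga (adjusted p 0.438).

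Fat differed widely within the rich side. The adipocyte list had a median difference of 1.59 (1.10 beyond the shift), with 6 of 8 at least 2-fold higher, and the summed TPM had a median of 701 on the rich side and 85.7 on the poor side. Just 12 of the 24 rich libraries were above the highest poor one, and 15 above the median of the poor side. Fabp4, the fatty acid carrier of fat cells, ranged from 3.5 to 2889 TPM (median 255) on the rich side and from 2.02 to 265 TPM (median 35.8) on the poor side. Adipoq, adiponectin, was under 10 TPM in 10 rich, 7 middle and 15 poor libraries. Car3, a carbonic anhydrase, and Cidec, a lipid droplet protein, differed by 2.01 and 1.53. In the middle libraries the median slope of the list was -1.40 and no gene passed; in the libraries with Chga 6 of 8 rose (5 with ratio factors, 8 within the 32 of high Chga). The part of fat in the immunoglobulin and complement values was not tested.

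Smooth muscle was less than the general shift: the list had a median difference of 0.21, which is -0.28 against the shift and -0.41 with ratio factors, and 0 of 12 genes were 2-fold apart. Acta2 had a median of 447 TPM on the rich side and 282 TPM on the poor side, and Tagln, an actin-bundling protein, had a median of 443 TPM on the rich side and 386 TPM on the poor side. Myl9 and Myh11, myosin chains of smooth muscle, differed by 0.21 and 0.16, while Cnn1, calponin, Des, desmin, and Actg2, enteric actin, differed by -0.11, -0.02 and -0.15. None rose in the middle libraries and 3 of 12 did in those with Chga, against 10 within the 32 of high Chga. Beside all genes, of which 39.7% and 15.7% rose, these counts are low in the larger set and high in the smaller.

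Skeletal muscle genes and 2310057J18Rik were high in the same few libraries. Beyond 100 TPM, 2310057J18Rik, the protein-coding gene outside the lists with the largest positive difference (3.43), was found in 8 rich, 0 middle and 0 poor libraries, where it lay between 139 and 17651 TPM. In 7 of these 8 Tnnt3, a troponin of fast skeletal muscle, was also at 5 TPM or more, against 8 rich, 2 middle and 1 poor libraries in all. These levels were chosen after the values were seen. The skeletal muscle list had a median difference of 1.73 with 5 of 7 at least 2-fold higher, yet its most abundant gene Acta1, skeletal actin, differed by just 0.07 (-0.59 with ratio factors). Ckm, the muscle creatine kinase, differed by 1.52, Tnnc2, a troponin, by 0.95 and Tnnt3 by 2.01. No gene of the list passed in either set of libraries that the sides leave out.

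Blood, nerve and neuroendocrine genes gave the remaining lists. The hemoglobin genes of the red blood cell list had a median difference of 1.05, with Hbb-bs at 1.13, Hba-a1 at 0.78, Hba-a2 at 1.79 and Hbb-bt at 0.96, and 0 of 4 passed in either set. The glia and nerve list had 0.61, close to the shift, with the myelin gene Mbp at 0.65 and the neurotrophin receptor Ngfr at 0.61. None passed in the middle libraries and Ngfr rose in those with Chga, not with ratio factors (adjusted p 0.0718) or within the 32 of high Chga (0.0547). For the neuroendocrine list, only Ncam1, an adhesion molecule, and Eno2, an enolase, reached the filter, and they differed by 0.76 and 0.67. Snap25, a synaptic protein, and Celf3, a splicing factor of neurons, stayed under it, with medians of 0.2 and 0.415 TPM on the rich side. Neither compared gene passed in the middle libraries. Ncam1 fell with Ptprc in those with Chga (-0.51 ± 0.18 (SE), adjusted p 0.0198), and with ratio factors Eno2 did as well. Neither fell within the 32 of high Chga, where the adjusted p was 0.571 for Ncam1 and 0.398 for Eno2.

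Proliferation genes were higher on the rich side. Of 14 compared, 10 were at least 2-fold higher, 5 beyond the shift, with a median difference of 1.30 (0.81 beyond it). Top2a, the topoisomerase of dividing cells, ranged from 3.3 to 298 TPM (median 22) on the rich side and from 1.27 to 16.9 TPM (median 7.08) on the poor side. Cdk1, the mitotic kinase, had a median of 26.8 TPM on the rich side and 7.64 TPM on the poor side, and the replication helicase genes Mcm2 and Mcm5 differed by 1.82 and 1.95. In 18 of 24 rich libraries the summed TPM was above the highest poor one, and W1118 stood at 993 against a median of 154. With this list itself as a covariate, the number of 2-fold genes between the sides went from 1674 to 1209, of which 783 of the higher and 89 of the lower ones were shared with the main comparison. None of the 14 rose with Ptprc in the middle libraries, where the median slope was 1.80, or in those with Chga, where it was -0.04. The part of proliferation in the leukocyte differences was not tested beyond that covariate.

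**Figure D4:**
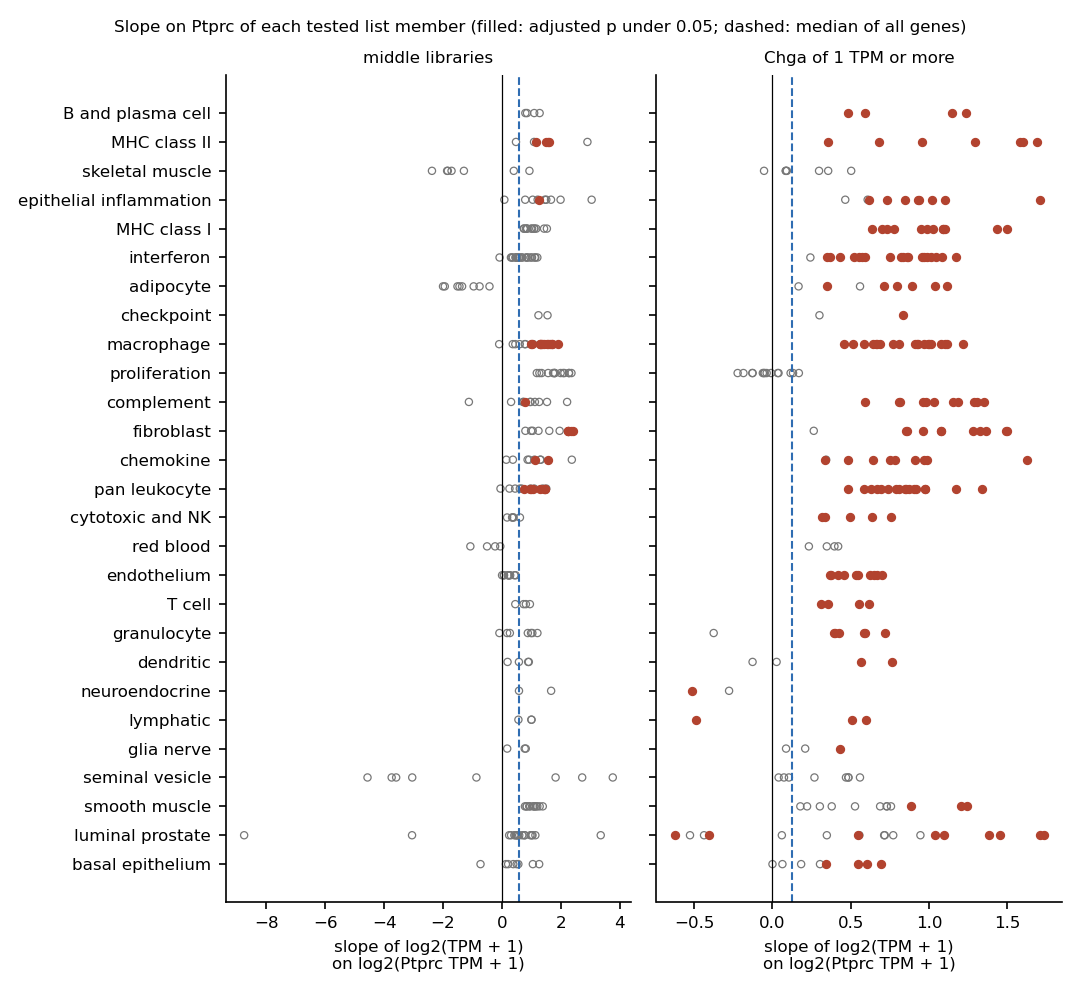
Slope of log2(TPM + 1) on log2(Ptprc TPM + 1) (x axes) for each compared gene of the 27 lists (y axis) in the 25 middle libraries (left) and the 42 with Chga of 1 TPM or more (right); filled points had an adjusted p under 0.05, and the dashed line is the median of all genes (0.58 and 0.12). In the middle libraries 13 macrophage, 8 pan-leukocyte, 5 fibroblast and 4 class II genes are filled, and no interferon, class I or proliferation gene.

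Some secretory genes of the prostate were lower on the rich side. Tgm4, which encodes a transglutaminase secreted by the anterior lobe, ranged from 0.64 to 10951 TPM (median 821) on the rich side and from 517 to 16895 TPM (median 10300.4) on the poor side. It was under 1000 TPM in 13 rich, 1 middle and 1 poor libraries, and 11 rich libraries lay below the lowest poor one. Its difference was -3.94 (SD 3.77 and 1.12; -3.75 without W4548). Ren1, the renin gene, ranged from 0.32 to 1601 TPM (median 2.06) on the rich side and from 0.52 to 2580.2 TPM (median 951) on the poor side. Here the rich side was split: 16 rich libraries were at or below 8.34 TPM, as were 2 middle and 1 poor, while every other library of the 73 lay at 19.7 TPM or more. All 13 rich libraries under 1000 TPM of Tgm4 were among those 16. These levels were likewise chosen after the values were seen. The region of prostate sampled is not labelled by library, so its part in these splits was not tested.

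Further protein-coding genes with the largest negative differences outside the lists were 9530053A07Rik (-4.74), 9530003J23Rik (-3.79), C1rb (-3.73), C1s2 (-3.71), Glb1l3 (-3.42), Gsdma (-3.31), Mt3 (-3.07), Pnliprp1 (-3.03) and Fgl1 (-2.87). C1rb and C1s2 are paralogs of the complement proteases C1r and C1s, Gsdma is a gasdermin, Mt3 a metallothionein, Pnliprp1 a lipase-related protein and Fgl1 a fibrinogen-like secreted protein. For each of them between 8 and 14 rich libraries lay below the lowest poor one. 9530053A07Rik, for one, had a median of 844 TPM on the rich side and 22338 TPM on the poor side. None of these genes, Ren1 and Tgm4 included, passed in the middle libraries; Gsdma rose in those with Chga (0.64 ± 0.27 (SE), adjusted p 0.0463), where its adjusted p was 0.0611 with ratio factors and 0.0926 within the 32 of high Chga. For Tgm4 the slopes were 0.76 ± 1.05 (SE), adjusted p 0.558, and 0.77 ± 0.51 (SE), adjusted p 0.219. For Tgm4, Ren1 and these further genes no fall with Ptprc was found in either of the other sets. In the libraries with Chga their medians were low, from 0.07 TPM for Pnliprp1 to 5.38 TPM for 9530053A07Rik. A fall could hardly have been seen there, so that set says little about these genes.

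**Figure D5:**
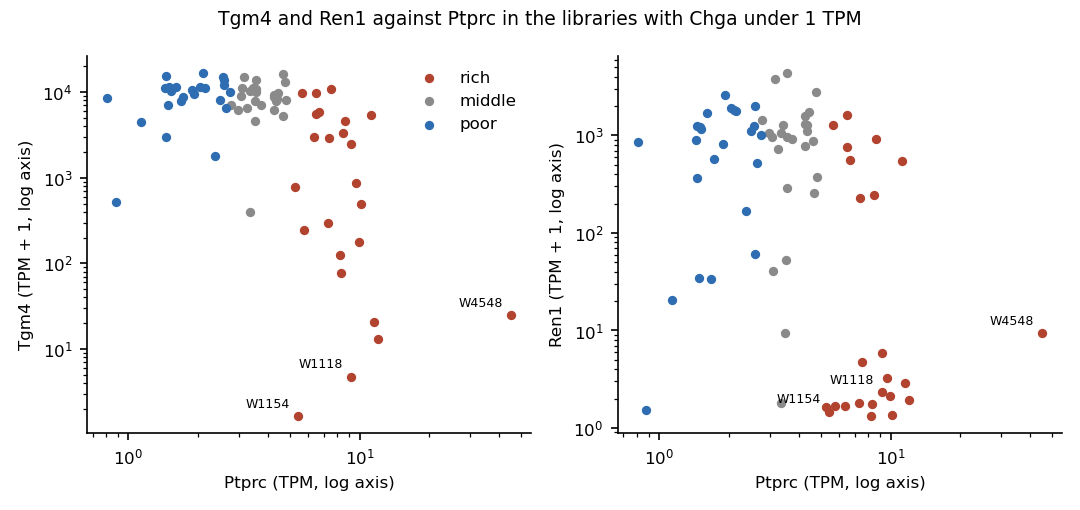
TPM + 1 of Tgm4 (left) and Ren1 (right) against Ptprc TPM in the 73 libraries with Chga under 1 TPM, log scales on all axes; red points are rich, grey middle and blue poor libraries, with W4548, W1118 and W1154 named. Ren1 was at or below 8.34 TPM in 16 of 24 rich libraries, and Tgm4 under 1000 TPM in 13 of them.

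The luminal list as a whole did not move one way. Its median difference was 0.16, and -0.46 with ratio factors, with 4 of 18 genes at least 2-fold higher and 2 lower. Hoxb13 and Spdef, transcription factors of luminal cells, differed by -0.65 and -0.45, and Tmprss2, an androgen-induced protease, Azgp1, a zinc-binding glycoprotein, and Mmp7, a matrix protease, by -0.45, -0.72 and -0.34. Among the most abundant members, Defb50, a defensin, differed by 0.76. Sbp, the spermine-binding protein, and Spink1, a trypsin inhibitor, differed by 1.05 and 1.44, but both ran from listed at 0 to over 1000 TPM on either side: Sbp passed 1000 TPM in 5 rich, 1 middle and 3 poor libraries, up to 92090.3 TPM on the poor side. Their direction was not fixed, since Sbp was -0.20 and Spink1 -0.58 when libraries with Chga up to 5 TPM were included, against 2.43 and 2.78 without the libraries in the 5000s. No luminal gene passed in the middle libraries, while 7 rose and 2 fell in those with Chga (7 and 1 with ratio factors, 10 and 0 within the 32 of high Chga). The share of luminal genes that rose was close to the 39.7% of all genes in those with Chga and above the 15.7% within the 32.

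Basal cells and seminal vesicle differed little. The basal list had a median difference of 0.14 (-0.27 with ratio factors), with keratins Krt14 at 0.17, Krt5 at -0.15 and Krt15 at -0.54, and Sfn, a 14-3-3 protein of stratified epithelium, at 0.78; on ratio factors Krt14 was -0.34. None of the 8 passed in the middle libraries and 4 rose in those with Chga (2 with ratio factors, 3 within the 32 of high Chga). Of all genes 39.7% rose there, 23.1% with ratio factors and 15.7% within the 32. The seminal vesicle list had 0.51, close to the shift, and 0 of 8 genes were 2-fold apart. Its secretory genes Svs5, Svs4, Svs2 and Pate4 differed by 0.26, 0.78, -0.03 and 0.13, within wide spreads: Svs4 ranged from 0.83 to 90519.7 TPM (median 32.1) on the rich side and from 1.79 to 13842 TPM (median 40.9) on the poor side. None passed in either set, and 2 of the 8 rose within the 32 of high Chga.

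Besides 2310057J18Rik, the protein-coding genes outside the lists with the largest positive differences were Ifi27l2a, an interferon-induced protein, Slc12a2, a sodium, potassium and chloride cotransporter, Hp, the hemoglobin scavenger haptoglobin, Lrrc26, a potassium channel subunit, Papss2, which makes the donor for sulfation, Abo, a glycosyltransferase, Cyp2f2, a cytochrome P450, Ppp1r1b, a phosphatase inhibitor, and Hk2, a hexokinase. Ifi27l2a ranged from 59.1 to 896.6 TPM (median 238) on the rich side and from 8.37 to 187 TPM (median 30.2) on the poor side, a difference of 2.94. Slc12a2 had a median of 168 TPM on the rich side and 20.7 TPM on the poor side, and Hp had a median of 66.1 TPM on the rich side and 3.54 TPM on the poor side. The others differed by between 2.42 (Hk2) and 2.65 (Lrrc26), and Hk2 and Ppp1r1b had 19 rich libraries above the highest poor one. None of the 10 passed in the middle libraries. In those with Chga, Ifi27l2a (1.80 ± 0.20 (SE), adjusted p 2.31e-09), Hp, Lrrc26, Papss2, Ppp1r1b and Hk2 rose, the last not with ratio factors (adjusted p 0.0612), and neither Hk2 nor Lrrc26 within the 32 of high Chga (adjusted p 0.512 and 0.0595).

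The genes whose levels followed Ptprc most closely over the 73 libraries, by Spearman's rho, were Dock2 (0.98), Nckap1l (0.97), Arhgap45, Sla, Il10ra, Plek, Irf5, Cyth4, Fermt3 and Fcer1g (0.95). This too is a description, since those libraries include the sides. Dock2 drives actin remodelling in migrating leukocytes and Nckap1l is a leukocyte subunit of the actin-regulating WAVE complex. Il10ra is the receptor chain for interleukin 10, Irf5 a factor of inflammatory macrophages, and Fermt3 the kindlin that activates leukocyte integrins. For all 10 the ranges of the sides did not overlap. Dock2 ranged from 1.82 to 18 TPM (median 3.21) on the rich side and from 0.44 to 1.41 TPM (median 0.955) on the poor side.

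Of genes in no list, Cyth4, Dock2, Nckap1l, Mpeg1 and Plek had the smallest adjusted p in the middle libraries. Cyth4 encodes an exchange factor for ARF GTPases, Mpeg1 the perforin-like protein of macrophages and Plek a protein kinase C substrate. Cyth4 rose at 1.36 ± 0.17 (SE), adjusted p 0.000202, Dock2 at 0.91 ± 0.14 (SE), adjusted p 0.00267, and Nckap1l at 1.00 ± 0.16 (SE), adjusted p 0.00267. All 3 were still called with ratio factors, without W78022 and within mouse numbers in the 4000s, where the adjusted p was 0.00689 for Cyth4 and 0.034 for Dock2. Mpeg1 was not called with ratio factors (adjusted p 0.108). In the libraries with Chga, Nckap1l, Dock2, Ifi203, Pld4 and Il10ra led: Dock2 rose at 0.66 ± 0.04 (SE), adjusted p 1.59e-18. Ifi203 encodes an interferon-induced nucleic acid binding protein and Pld4 an endolysosomal exonuclease.

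The genes that fell most surely with Ptprc in the libraries with Chga were Ttc6, Cpne5, a copine, Hlf, a circadian transcription factor, BC002163 and Gm24336. Ttc6 fell with a slope of -0.74 ± 0.15 (SE), adjusted p 0.000288, and Hlf with -0.65 ± 0.14 (SE), adjusted p 0.000492; within the 32 of high Chga the adjusted p was 0.0343 for Ttc6 and 0.0632 for Hlf. Between the sides these genes differed little or the other way, with -0.13 for Ttc6, 0.27 for Hlf and 1.55 for Gm24336. None passed in the middle libraries, and none of the 5 was 2-fold lower on the rich side.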

How the data were processed

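Total RNA of prostates was sequenced in 115 libraries; the authors trimmed the reads, aligned them with Bowtie2 2.2.5 to an allele-specific transcriptome and quantified genes with RSEM 1.2.20, and TPM values were deposited. Genes were named from GENCODE M21. Values were log2(TPM + 1), for autosomal genes whose mean reached 1 TPM where Chga was below 1 TPM, without Ptprc and Chga. Regressions used limma 3.58.1 (lmFit, eBayes with trend) in R 4.3.3; correlations used 100000 permutations in scipy 1.17.1. The fits were also run on simulated middle libraries in which some genes had a known slope. Noise there was independent between genes, so that run does not bear on the general shift. Members and lists were chosen with earlier results of these data known. Named genes were the markers, the 4 most abundant members of each list with members that did not overlap or went against their list, the 10 protein-coding genes with the largest differences each way, the 10 highest rho and the 5 smallest adjusted p each way outside the lists. Alternatives changed the pseudocount, scaling, filter, ranking gene, covariates, libraries and limits. Depth per library is not in the file, so precision from counting is unknown. No library was left out, and age and tumor burden were not used.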

Additional observations from a re-analysis of the deposited data

How the results depend on the processing

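No paired analysis was possible because no label pairs the libraries. The number of genes at least 2-fold apart between the sides was 1674, and stayed within 1.5 times that except for 2995 with a pseudocount of 0.1, 772 with ratio factors, 688 less the median difference of all genes, 610 with 36 libraries a side and 491 when ranked by Cd3e; the cause was not tested.

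In the middle libraries 190 genes passed. The count was 54 with ratio factors, 13 rescaled without the 20 genes, 115 with no filter, 1416 on Csf1r and 0 on Cd3e. It was 33 with the proliferation and 13 with the smooth muscle covariate, and 36 against the median slope. With fewer samples it moved both ways. It was 14 within mouse numbers in the 4000s, 32 without W78022 and 716 when the 2 libraries with Ptprc farthest from its median were left out. The cause of these changes was not tested. In the libraries with Chga 5551 passed, against 3169 rescaled without the 20 genes, 862 in the 4000s and 2160 with Chga of 20 TPM or more (fewer samples in both) and 3417 against the median slope. Of these, 386 fell, against 140 with log2(Chga + 1), 249 with smooth muscle and 738 with proliferation as a covariate, 1410 with no filter, 1017 on Csf1r and 779 on Cd3e. W78022 is not in that set, so its removal gave no value there. The relations of Csf1r and Cd3e with Ptprc kept their direction after 2 libraries were left out and, where it was run, within mouse numbers in the 4000s, which was not run in the 10 libraries; with ratio factors Cd3e in those 10 went from 0.20 to -0.09. These alternatives have no p.

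Genes 2-fold apart in the main comparison, or called in the main or the alternative fit, reversed as follows, and the cause was not tested. With the proliferation covariate the differences of H2-Eb1, Top2a and Cdk1 were -0.37, -0.18 and -0.00215. Sbp was -0.0345 when ranked by Cd3e and -0.20 with Chga up to 5 TPM; Spink1 was -0.29 when ranked by Csf1r, -0.0204 with 36 libraries a side and -0.58 with Chga up to 5 TPM. With Cd3e in place of Ptprc, slopes in the middle libraries were -0.37 for Cd53, -0.24 for Coro1a, -0.20 for Itgb2, -0.64 for Lyz2, -0.83 for C1qa, -0.0342 for C1qb, -0.25 for C1qc, -0.32 for Fcer1g, -0.25 for Col3a1, -0.0257 for Nckap1l, -0.22 for Il10ra, -0.29 for Plek, -0.23 for Cyth4, -0.27 for Fermt3 and -0.39 for Pld4. In the libraries with Chga, the slope of Tcf7 was -0.0105 in the 4000s and -0.0546 with Chga of 20 TPM or more. With the smooth muscle covariate, slopes were -0.38 for Krt15, -0.28 for Krt5, -0.15 for Myh11, -0.41 for Acta1, -0.56 for Tnnc2, -0.52 for Ckm and 0.58 for Top2a. Smaller differences changed sign more often, with ratio factors those of Cd52, Lcp1, Gzma, Batf3, Cma1, Mcpt4, Cpa3, Krt14, Svs5, Pate4, Tagln, Acta2, Myl9, Myh11, Acta1 and Hlf among others, without the 5000s those of Mcpt4, Svs2, Tagln and BC002163, and without W4548 that of Svs2. Leaving out W4548, W1118 with W1154 or the 5000s, subtracting the median and taking only Chga of 20 TPM or more were chosen after seeing the data. Depth limits nothing that can be measured here, since TPM keeps none.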
